A study of Homo sapiens with 6 samples.

Results

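The genes described are 10 that encode the core of RNA interference and the microRNA pathway: AGO1, AGO2, AGO3, AGO4, TNRC6A, TNRC6B, TNRC6C, DICER1, DROSHA and XPO5. They were taken by name from a deposited table of 58735 genes, in which all 10 were found, and all 10 were among the 16577 genes with enough counts to be tested. The cells were Huh7, an established line from a human liver carcinoma, and their RNA was sequenced in 2 groups of 3 libraries. One group (shITGB5) carried a short hairpin RNA against ITGB5, the integrin beta 5 subunit, and the other (shcontrol) a control hairpin. Both groups therefore express a hairpin, and the series has no group without one. The labels state neither the hairpin sequences, nor how many hairpins stand behind a group, nor the time after their introduction. They also do not say whether replicate libraries are separate cultures, so the p-values rest on a spread between libraries that could be technical alone.

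MicroRNAs are cut from nuclear transcripts by the ribonuclease DROSHA with its partner DGCR8, carried to the cytoplasm by exportin 5 (XPO5) and cut again by DICER1. An Argonaute protein (AGO1 to AGO4) then holds the mature strand and pairs it with target mRNAs, and of these proteins AGO2 is the established slicer. TNRC6 proteins (the GW182 family) bind Argonaute and bring in the deadenylases and decapping factors that silence the target. Hairpins expressed from a vector use part of the same route, entering at export or at DICER1, so the question put to these genes is whether their mRNAs differ when the hairpin targets ITGB5 and not a control.

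Libraries held 16563911 to 18011313 counts with the ITGB5 hairpin and 15777922 to 17476580 with the control. The 10 genes together took 0.0592% to 0.0615% of the counts in shITGB5 libraries and 0.0613% to 0.0625% in shcontrol libraries. ITGB5 itself was at 175.8 CPM ± 4.28 in shITGB5 libraries and 211.3 CPM ± 6.33 in shcontrol libraries (SD, n = 3 each), where CPM is the usual count scaled to library total, after adjustment by trimmed mean of M values (TMM). That is a log2 change of -0.27 (edgeR quasi-likelihood test, Benjamini-Hochberg adjusted p = 2.13e-09), or -16.8%, in the direction of the label. Mitochondrial transcripts took 3.24% to 3.29% in shITGB5 and 3.46% to 3.54% in shcontrol libraries. Genes with at least 1 count numbered 25856 to 26143 in shITGB5 and 26795 to 26976 in shcontrol libraries, without overlap. The line expressed its hepatocyte and hepatoma markers. Of these, 7 of 10 rose and 0 fell at an edgeR adjusted p under 0.05, beside 8.31% of all tested genes that rose and 6.74% that fell. Of 9 fibroblast and stellate markers 6 were tested, of which 1 (LUM) rose, and 3 never exceeded 10 counts. Their summed levels were 343 to 355 CPM in shITGB5 and 307 to 321 CPM in shcontrol libraries. Most of the sum was LUM (means of 169.7 CPM in shITGB5 and 145.4 CPM in shcontrol libraries) and COL1A2 (137.0 and 129.8 CPM). Endothelial markers summed to 4.17 to 5.50 CPM in shITGB5 and 3.55 to 5.62 CPM in shcontrol libraries, and 4 of the 5 never exceeded 10 counts. Blood and immune markers summed to 40.2 to 42.7 CPM in shITGB5 and 37.5 to 37.9 CPM in shcontrol libraries, and 4 of the 6 never exceeded 10 counts. The part of these differences in the results below was not tested. In bulk RNA, fewer cells of a type and less RNA per cell cannot be told apart.

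All 10 genes were expressed, over a range of about an order of magnitude per length. On the scale of CPM per kilobase of annotated exon (FPKM, computed from the counts), TNRC6A was highest, at 9.57 ± 0.24 in shITGB5 and 9.93 ± 0.20 in shcontrol libraries (SD, n = 3 each), and TNRC6C lowest, at 0.847 ± 0.054 and 0.902 ± 0.078 FPKM. XPO5, DROSHA and AGO2 came after TNRC6A with ranges over the 6 libraries of 7.21 to 8.05, 7.34 to 7.89 and 6.85 to 7.40 FPKM. These ranges overlapped, and their order changed from library to library. AGO1, at 5.94 to 7.15 FPKM, overlapped AGO2 in range but ranked below it in each library. AGO4 (3.07 to 3.42 FPKM) lay just above TNRC6B (2.59 to 3.06 FPKM), whose range overlapped that of DICER1 (2.30 to 2.69 FPKM). AGO3 (1.58 to 1.85 FPKM) lay below DICER1 without overlap. In all, 7 of the 10 genes held 1 rank in every library. The median of the tested genes was 4.12 FPKM, and 5 members averaged below it, DICER1 among them. Which transcript forms the cells used was not measured, and the level depends on the length taken. Dividing by the length of the principal annotated transcript instead raised the values, to 14.9 FPKM for TNRC6A and 2.95 FPKM for DICER1 averaged over the 6 libraries, and left the order of the 10 means as it was.

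**Figure D1:**
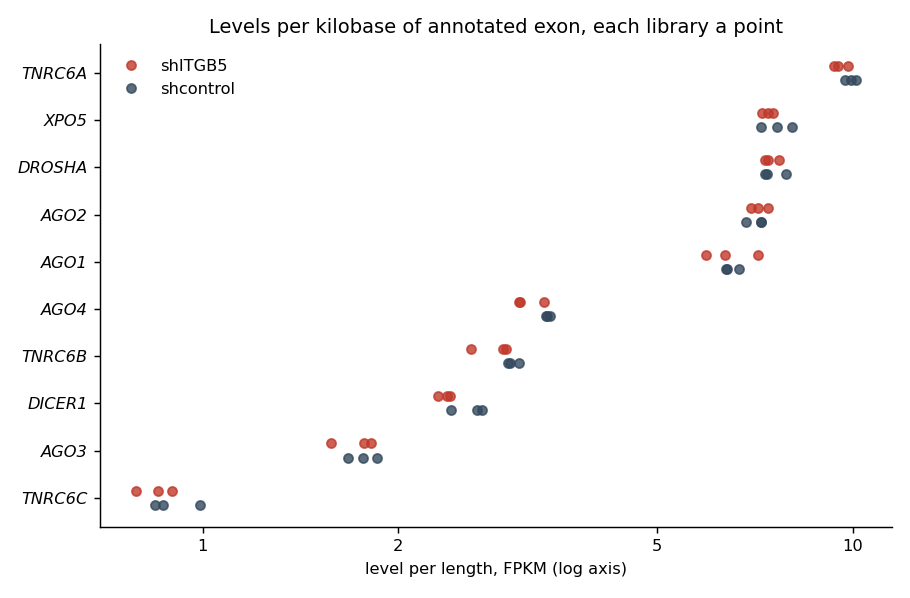
Level of each gene per kilobase of annotated exon (FPKM, log axis) in the 3 shITGB5 libraries (red, upper points) and the 3 shcontrol libraries (dark, lower points). TNRC6A is highest and TNRC6C lowest, and within each gene the points of both groups lie close together relative to the distance between most genes.

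Within the families, AGO2 and AGO1 made up most of the Argonaute mRNA. AGO2 accounted for 38.7% ± 1.3 of the summed Argonaute FPKM in shITGB5 libraries and 37.9% ± 0.87 in shcontrol libraries (SD, n = 3 each). The share of AGO1 was 34.9% ± 2.7 with the ITGB5 hairpin and 34.6% ± 1.2 with the control. AGO4 held 17.1% ± 1.0 in shITGB5 and 18.1% ± 0.12 in shcontrol libraries, and AGO3 9.28% ± 0.51 and 9.41% ± 0.41. The 4 genes summed to 18.0, 18.5 and 19.1 FPKM in shITGB5 libraries, within which the shcontrol sums of 18.6, 18.8 and 18.9 FPKM also fell. Of the TNRC6 family, TNRC6A held 72.4% ± 1.8 in shITGB5 and 71.8% ± 0.82 in shcontrol libraries. The summed TNRC6 level was 13.1 to 13.3 FPKM in shITGB5 libraries and 13.6 to 14.0 FPKM in shcontrol libraries, ranges that did not overlap. This difference in sums was not tested.

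None of the 10 genes passed the test between the groups. In the edgeR fit over the whole table, 0 of 10 had an adjusted p under 0.05, when 15.1% of all tested genes did, and 0 of 10 had an unadjusted p under 0.05, when 25.4% of all genes did. DESeq2 and limma also called 0 of the 10, with 16.7% and 15.4% of the genes to which they gave an adjusted p called. For 3 of the 10 (AGO4, TNRC6B and DICER1) there was no overlap between the groups' libraries, against 28.5% of all tested genes. The median log2 change of the members was -0.05, against -3.64e-05 over all tested genes. Of the 10 estimates 9 were below 0, whereas 8292 of the 16577 tested genes (50.0%) had one below 0. The largest was that of DICER1, -0.13, and AGO2 had the one estimate above 0. A p that misses the threshold does not show that levels were equal, so the 95% interval of each change is given with it.

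**Figure D2:**
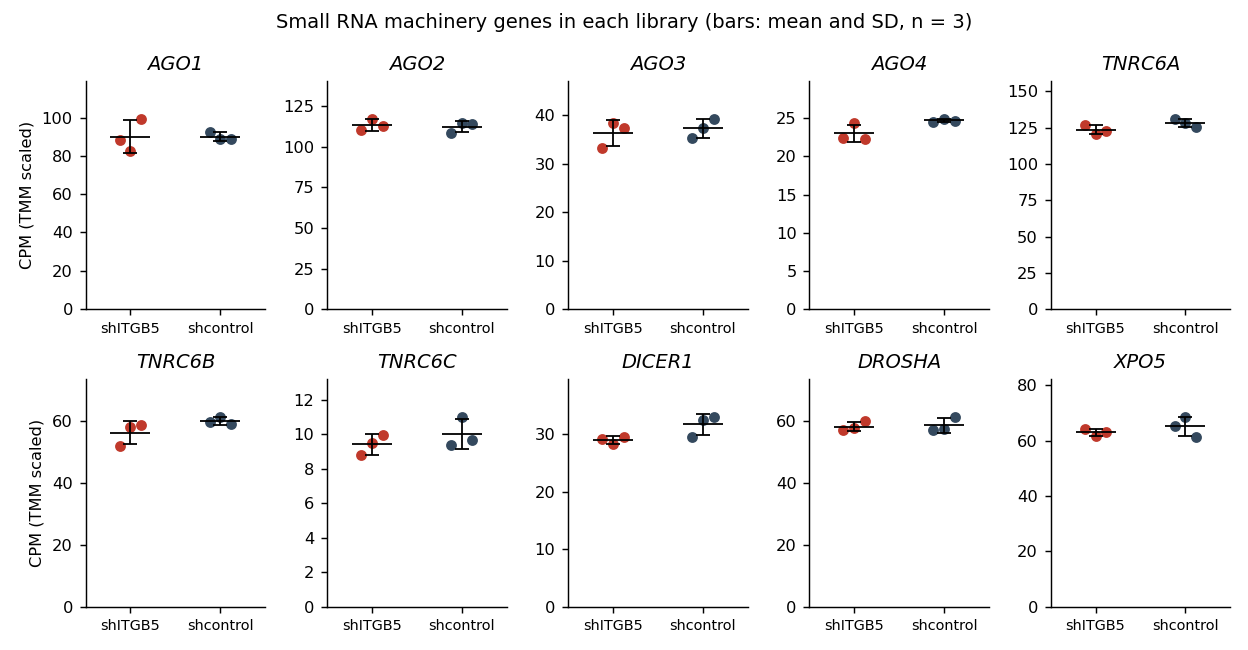
CPM of each gene in each library (points), with the mean and SD of the 3 shITGB5 libraries on the left and the 3 shcontrol libraries on the right of each panel, on axes from 0. The points of the groups overlap for 7 genes, and those of AGO4, TNRC6B and DICER1 are separated by small gaps.

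DROSHA, the nuclear ribonuclease that makes the first cut, lay at 57.1, 57.7 and 59.9 CPM in shITGB5 libraries and at 57.1, 57.3 and 61.4 CPM in shcontrol libraries. The groups overlapped, the highest value being a control library, with a change of -0.635% (95% interval -7.48% to 6.72%, edgeR adjusted p = 0.946). XPO5, which exports hairpin precursors through the nuclear pore, had 64.2, 61.8 and 63.1 CPM with the ITGB5 hairpin and 65.2, 68.6 and 61.5 CPM with the control. The lowest XPO5 value was a control library, and the change was -3.24% (interval -9.71% to 3.69%, edgeR adjusted p = 0.622). Without shcontrol replicate 2 the log2 estimate of XPO5 was -0.01, and without shcontrol replicate 3 it was -0.09. XPO5 (chromosome 6) overlaps the opposite-strand gene POLR1C, which had 33.0% as many counts. Whether the authors' counting used strand is not given in the sources used. POLR1C had a log2 change of -0.10 (edgeR adjusted p = 0.551).

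DICER1, the cytoplasmic ribonuclease that releases the mature duplex, had the largest estimate of the 10. It lay at 29.2, 28.3 and 29.5 CPM in shITGB5 libraries, against 29.6, 32.5 and 33.0 CPM in shcontrol libraries. All 3 shITGB5 values were below all 3 shcontrol values, but the highest of the first and the lowest of the second nearly met. The change was -8.47% (interval -17.0% to 0.999%); on the log2 scale it was -0.13 ± 0.071 (SE; edgeR, unadjusted p = 0.0771, adjusted p = 0.261, DESeq2 adjusted p = 0.332, limma adjusted p = 0.245). DICER1 (ENSG00000100697) lies on chromosome 14, 95086228 to 95158010, minus strand, in GRCh38.

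Of the Argonaute family, the pair that carries most of its mRNA had the estimates nearest 0. AGO2, the slicing Argonaute, had 110.3, 117 and 113 CPM in shITGB5 libraries and 108, 114.5 and 114.4 CPM in shcontrol libraries. Its change of 0.96% had an interval of -4.33% to 6.54% (edgeR adjusted p = 0.88). AGO1 had 88.2, 82.4 and 99.2 CPM with the ITGB5 hairpin and 92.7, 88.9 and 88.7 CPM with the control, a change of -0.121% (interval -6.38% to 6.55%, edgeR adjusted p = 0.987). The shITGB5 libraries of AGO1 spread on both sides of the controls. Their coefficient of variation was 9.49%, when counting error alone gives 2.53%, and that of the shcontrol libraries was 2.51%.

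AGO3 had 33.4, 38.4 and 37.5 CPM in shITGB5 libraries and 35.4, 37.3 and 39.2 CPM in shcontrol libraries, with a change of -2.51% (interval -11.1% to 6.90%, edgeR adjusted p = 0.798). AGO4 had 22.4, 24.3 and 22.3 CPM with the ITGB5 hairpin and 24.6, 24.9 and 24.6 CPM with the control. The shcontrol libraries of AGO4 lay within 0.697% of each other as a coefficient of variation, less than the 4.92% that counting error gives, and 1 shITGB5 library lay close below them. The change of AGO4 was -6.89% (interval -16.5% to 3.82%, edgeR adjusted p = 0.456). AGO4, AGO1 and AGO3 follow each other in that order on the plus strand of chromosome 1, from 35808172 to 36072500 in GRCh38. The annotated end of AGO1 is 189 bases from the start of AGO3, and 11917 bases separate AGO4 from AGO1. Argonaute coding sequences resemble each other, and the labels do not state how reads that match more than one were counted.

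The TNRC6 genes, whose glycine-tryptophan repeats bind Argonaute, all had estimates below 0. TNRC6A had 127, 121 and 123 CPM in shITGB5 libraries and 131, 128 and 126 CPM in shcontrol libraries, a change of -3.68% (interval -8.45% to 1.35%, edgeR adjusted p = 0.385). The groups overlapped. TNRC6B had 51.8, 57.9 and 58.5 CPM with the ITGB5 hairpin and 59.4, 61.2 and 58.9 CPM with the control. Its groups did not overlap, yet 2 of the 3 shITGB5 values were close to the lowest control. The change of TNRC6B was -6.40% (interval -13.0% to 0.724%, unadjusted p = 0.0763, edgeR adjusted p = 0.259), and without shITGB5 replicate 1, the lowest library, its log2 estimate was -0.04. TNRC6C, the least abundant member with 153 to 185 counts a library, had 8.78, 9.48 and 9.98 CPM in shITGB5 and 9.38, 11.0 and 9.67 CPM in shcontrol libraries. Its change was -6.09% with the widest interval of the 10, -20.7% to 11.2% (edgeR adjusted p = 0.715), and its log2 estimate of -0.09 became -0.02 without shcontrol replicate 2. The antisense gene TNRC6C-AS1 overlaps it with 18.8% as many counts, and reads of the pair cannot be told apart if strand was not used.

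**Figure D3:**
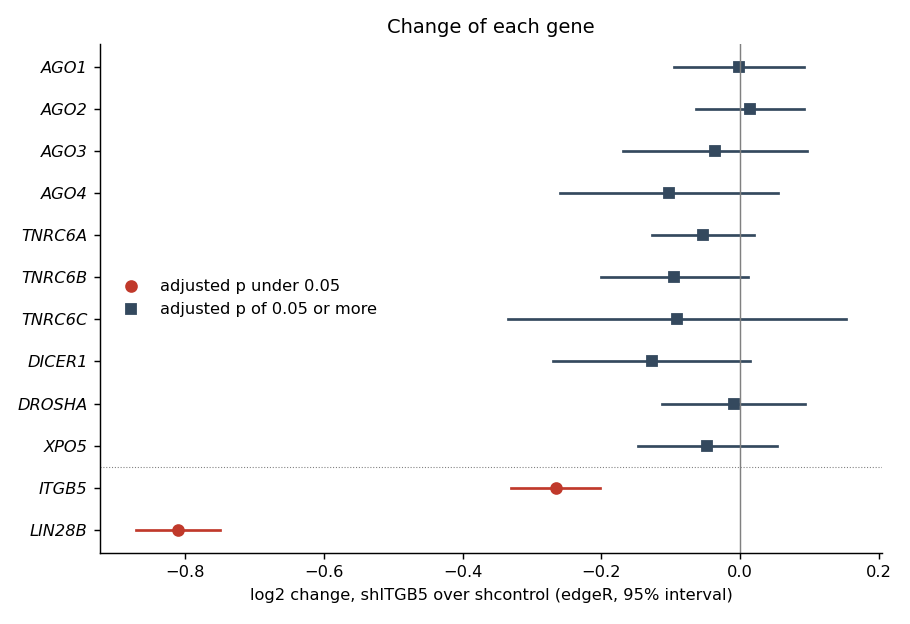
Log2 change of each gene, shITGB5 over shcontrol, with its 95% interval (edgeR). The intervals of the 10 machinery genes all include 0, while those of ITGB5 (-0.27) and of LIN28B (-0.81), a regulator of let-7 microRNAs, lie below it.

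Small RNAs can pair with the 3′ untranslated region (UTR) of an mRNA, so those of the 10 genes were searched for short words. In 1 principal transcript per gene (GENCODE 29), the median 3′ UTR of the 10 was 4.28 kb, against 1.08 kb for the 13239 tested genes with an annotated 3′ UTR. The longest were those of AGO3 (16.755 kb) and TNRC6B (12.567 kb), and the shortest that of DROSHA (0.935 kb). Matches to 7-letter words were counted on the mRNA strand. These were CTACCTC, complementary to the let-7 seed; ATGCTGC, complementary to the miR-103 and miR-107 seed, a family known to target DICER1; AGACCAA or GACCAAA, words that earlier work on these same libraries found often in genes that fell; and TCGGAGA or CGGAGAA, found often in genes that rose. Overlapping AGACCAA and GACCAAA matches were counted as 1 site. A match describes letters in a window and is not shown to be a working site.

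let-7 is brought in because LIN28B, whose product binds let-7 precursors and keeps them from being processed, was much lower with the ITGB5 hairpin: 163, 158 and 161 CPM in shITGB5 libraries, against 281, 283.5 and 281 CPM in shcontrol libraries (log2 change -0.81, SE 0.030, edgeR adjusted p = 1.91e-30). Mature microRNAs were not measured in these libraries. Below are the mature microRNAs from RefSeq (GRCh38.p14) with the seed, bases 2 to 8, in capitals. The let-7a seed is shared by 11 human mature microRNAs in that source and the miR-103a seed by 2, miR-103a and miR-107.
let-7a-5p, chr9:94175962-94175983, plus strand: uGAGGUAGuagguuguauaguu
miR-103a-3p, chr20:3917541-3917563, plus strand: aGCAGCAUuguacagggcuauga

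Sites in the mRNAs are shown 5′ to 3′ with the matched word in capitals and 8 bases on each side (GENCODE 29 transcripts, GRCh38). For let-7, one site each of AGO1 and AGO3 is shown beside the first of the 4 that the LIN28B 3′ UTR holds, which lies 44 bases after the stop codon.
AGO1, chr1:35920684-35920706, plus strand: tattcctcCTACCTCccgccccg
AGO3, chr1:36069080-36069102, plus strand: gtcctcacCTACCTCactaaatt
LIN28B, chr6:105078819-105078841, plus strand: tgcaaagtCTACCTCatgcaagt
For miR-103 and miR-107, all 5 sites of DICER1 are shown, in order from the stop codon.
DICER1 site 1, chr14:95089450-95089472, minus strand: cctaaaatATGCTGCagatttta
DICER1 site 2, chr14:95088849-95088871, minus strand: ttcgtggaATGCTGCatttatat
DICER1 site 3, chr14:95087645-95087667, minus strand: tcctaactATGCTGCgttttata
DICER1 site 4, chr14:95086374-95086396, minus strand: accatcacATGCTGCagctgttt
DICER1 site 5, chr14:95086322-95086344, minus strand: cagtaatcATGCTGCagaaattt
For the word common in genes that fell, sites of 3 members that did not pass the test are set beside those of LIN28B and TSNAX, which fell. The sites of AGO1 (change -0.121%) and AGO2 (0.96%) and the second site of TNRC6B are not shown.
TNRC6B, chr22:40326029-40326052, plus strand: aaaaaaaaAGACCAAAaagtgcgt
DICER1, chr14:95086742-95086764, minus strand: tatgtttaAGACCAAgactatta
XPO5, chr6:43523036-43523058, minus strand: gataatacAGACCAActaggcta
LIN28B, chr6:105082966-105082989, plus strand: cgtactagAGACCAAAgtgaaccc
TSNAX, chr1:231564942-231564964, plus strand: ctcctaagAGACCAAtttgtaag

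AGACCAA or GACCAAA was present in 5 of the 10 members: AGO1, AGO2 and TNRC6B with 2 sites each, DICER1 and XPO5 with 1. It was present in 15.8% of the 13239 tested 3′ UTRs. Among 3′ UTRs of like length (0.8 to 1.25 times), the share was 63.8% for AGO1, 72.3% for AGO2, 69.7% for TNRC6B, 33.7% for DICER1 and 16.2% for XPO5. None of these 5 members passed the test. TSNAX, which fell by 0.45 on the log2 scale, and LIN28B hold 1 site each, at 45 and 4191 bases after the stop codon, and among 3′ UTRs as long as theirs 16.8% and 34.9% held one. Since the word came from genes that fell in these libraries, its presence in fallen genes is not independent evidence. The 3′ UTRs of 13 genes outside the core that fell were looked at singly. Other fallen genes named below, such as TOB2, CNOT3, CNOT11 and CNOT1, were not among them. The word was held by 6 (LIN28B, TSNAX, TENT2, HSP90AA1, XPO1 and ADAR) and not by 7 (ITGB5, CNOT8, BTG1, BTG2, HNRNPA1, EDC4 and TNPO1). Like-length shares were 13.9% for TENT2, 11.8% for HSP90AA1 and XPO1 and 24.8% for ADAR. For the 7 without it they ran from 2.97% (TNPO1) to 30.7% (BTG1). This split shares the circularity and is not evidence about the word. CGGAGAA was present once, in TNRC6C, and either form of that pair in 3.36% of tested 3′ UTRs and 6.66% of those as long as that of TNRC6C.

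let-7 sites were present in AGO1 and AGO3 (1 each) and AGO2 (2), and in 9.88% of tested 3′ UTRs. Among 3′ UTRs of like length 49.1% held one for AGO1, 50.0% for AGO2 and 51.5% for AGO3. For LIN28B, which holds 4, that share was 23.8%. miR-103 and miR-107 sites were present in DICER1 and AGO2 (5 each), AGO1 and TNRC6B (3 each), AGO4 (2) and AGO3 (1). The share of tested 3′ UTRs with such a site was 12.8%, but among 3′ UTRs of like length it was 29.1% for DICER1, 29.5% for AGO4, 52.8% for AGO1, 54.5% for AGO2, 60.7% for TNRC6B and 69.7% for AGO3. For the 4 longest, such a site was thus present in most genes of that length. TNRC6A and DROSHA held none of the 4 kinds of word.

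**Figure D4:**
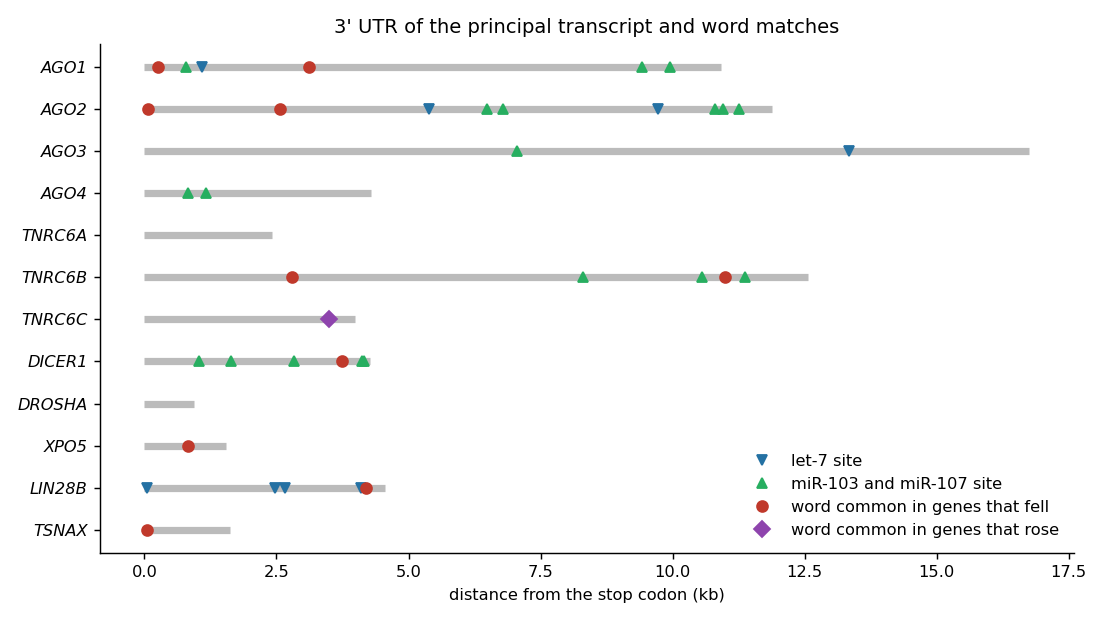
Grey bars are the 3′ UTR of the principal transcript of each gene, to scale in kb from the stop codon, and symbols mark the word matches. AGO1, AGO2, AGO3 and TNRC6B have 3′ UTRs over 10 kb with matches spread along them, and LIN28B carries 4 let-7 sites in 4.549 kb.

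Genes that work with the 10 were described by list. Of 92 genes in 8 lists, 89 were tested, of which 5 rose and 20 fell (28.1%) and 64 did not pass, beside 8.31% of all tested genes that rose and 6.74% that fell. The median log2 change of the 89 was -0.01. Without regard to sign, the median log2 change was 0.0699 for the 89 and 0.113 over all tested genes. It was 0.0747 for the deadenylation list and 0.121 for tailing, trimming and turnover. Shares called, here and by list below, were not compared with those of genes with like counts. These lists were chosen with earlier results of these data known. They were not tested as lists, nor against the 10 core genes.

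Among 12 partners in nuclear processing and export, 1 rose, 1 fell and 10 did not pass, a share of 16.7% near that of all genes. ERH, a small partner of DGCR8, rose to 94.8, 100.4 and 102 CPM in shITGB5 libraries, against 92.1, 88.3 and 91.5 CPM in shcontrol libraries (log2 change 0.13, edgeR adjusted p = 0.0245). ERH overlaps SLC39A9 on the other strand, and it missed the threshold without shITGB5 replicate 2 or 3 or shcontrol replicate 2 or 3 (edgeR adjusted p of 0.0534 to 0.153), as it did in DESeq2 (0.0555), each of which left 1 call in the list. HNRNPA1, which binds some microRNA precursors, fell to 1030.0 CPM ± 8.92 in shITGB5 libraries, against 1117 CPM ± 10.7 in shcontrol libraries (SD, n = 3 each, log2 change -0.12, edgeR adjusted p = 1.62e-05). The table lists 75 HNRNPA1 pseudogenes by symbol, so its counts are uncertain. DGCR8, the partner of DROSHA, had 55.9, 57.3 and 57.5 CPM with the ITGB5 hairpin and 51.7, 50.9 and 53.6 CPM with the control. Its groups did not overlap, as for 28.5% of all tested genes. The log2 change of DGCR8 was 0.13 (95% interval 0.02 to 0.23), but the adjusted p was 0.0966 (edgeR). TRMT2A overlaps DGCR8 on the other strand, with counts equal to 64.5% of those of DGCR8.

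Of 12 Dicer partners and Argonaute loading factors, 1 rose, 2 fell and 9 did not pass. Beside this, 8.31% of all tested genes rose and 6.74% fell. TSNAX encodes translin-associated factor X, which with translin forms a nuclease that removes the passenger strand from Argonaute. TSNAX was at 43.1, 36.5 and 40.4 CPM in shITGB5 libraries, against 53.5, 56.8 and 53.8 CPM in shcontrol libraries (log2 change -0.45, SE 0.059, edgeR adjusted p = 2.1e-08). The groups did not overlap, as for 28.5% of all tested genes. AHSA1, a co-chaperone that stimulates HSP90, rose (115 CPM ± 0.663 in shITGB5 and 98.7 CPM ± 2.33 in shcontrol libraries, log2 change 0.22, edgeR adjusted p = 1.61e-05). HSP90AA1, the inducible HSP90 that opens Argonaute for loading, fell by 0.12 on the log2 scale (edgeR adjusted p = 8.69e-06). TARBP2, the double-stranded RNA-binding partner of DICER1, lay at 45.5 CPM ± 0.493 in shITGB5 and 47.0 CPM ± 2.31 in shcontrol libraries (log2 change -0.05, edgeR adjusted p = 0.682).

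Deadenylation genes included 7 that fell of 19 (36.8%, beside 6.74% of all tested genes that fell), with 0 that rose and 12 that did not pass. BTG2 and BTG1, antiproliferative adaptors that bind the CCR4-NOT deadenylase, had log2 changes of -0.27 and -0.22 (edgeR adjusted p = 0.00492 and 1.82e-07). CNOT8, a catalytic subunit, fell to 92.6 CPM ± 2.88 in shITGB5 libraries, against 108.6 CPM ± 3.27 in shcontrol libraries (SD, n = 3 each, log2 change -0.23, edgeR adjusted p = 1.65e-05). CNOT8 overlaps FAXDC2 on the other strand, which itself had a log2 change of -0.51 and counts equal to 31.3% of those of CNOT8, so the part of FAXDC2 in it was not tested. The other four, named after their values were seen, were TOB2 (-0.15), CNOT3 (-0.13), CNOT11 (-0.12) and CNOT1, the scaffold of the complex (-0.10). CNOT11 overlaps TBC1D8 on the other strand, with counts equal to 80.1% of its own. Without shcontrol replicate 1, 4 of the 19 fell, with BTG2 at an edgeR adjusted p of 0.064. With 1 library left out, CNOT3 stayed called only without shITGB5 replicate 2. CNOT3 was also lost in DESeq2 (adjusted p = 0.0631) and with no low-count filter (edgeR adjusted p = 0.0698). CNOT1 was not called without shITGB5 replicate 3 or shcontrol replicate 3, nor CNOT11 without shITGB5 replicate 1 or shcontrol replicate 1.

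Of 17 decapping, decay and translational repression genes, 2 rose and 3 fell (29.4%, beside 15.1% of all tested genes called). DCP2, the decapping enzyme, rose to 83.3, 79.3 and 84.0 CPM in shITGB5 libraries, against 61.9, 63.0 and 62.5 CPM in shcontrol libraries (log2 change 0.40, SE 0.046, edgeR adjusted p = 9.11e-10). All 3 shITGB5 values of DCP2 were above all 3 shcontrol values, by a margin well over the spread within either group. Groups did not overlap for 28.5% of all tested genes. Its enhancers went in different directions, EDC3 at 0.18 and EDC4 at -0.12 on the log2 scale (edgeR adjusted p = 0.0091 and 0.0195). EDC3 was not called without shITGB5 replicate 1 or shcontrol replicate 2 (0.119 and 0.0505), nor EDC4 without shITGB5 replicate 1 or 3 or shcontrol replicate 3 (0.0741 to 0.15). EDC3 overlaps CLK3 on the other strand, with counts equal to 87.5% of those of EDC3. The list had 2 calls without shITGB5 replicate 3, shcontrol replicate 2 or shcontrol replicate 3.

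Of 12 genes of microRNA tailing, trimming and turnover, 5 fell (41.7%, beside 6.74% of all tested genes that fell) and 0 rose, led by LIN28B. ADAR, which edits double-stranded RNA, fell by 0.13 on the log2 scale (edgeR adjusted p = 4.54e-05). TENT2, a cytoplasmic poly(A) polymerase that adds adenosine to microRNA ends, had a log2 change of -0.17 (edgeR adjusted p = 0.0275). That call was lost without shITGB5 replicate 1 or 2 or shcontrol replicate 1 or 2 (0.0628 to 0.111), with no low-count filter (0.0644) and in DESeq2 (0.0523). The list had 2 calls without shITGB5 replicate 1 or shcontrol replicate 1, and 3 without shcontrol replicate 2.

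Of 10 tested genes that modify Argonaute, 1 rose (10.0%, beside 8.31% of all tested genes that rose). CSNK1A1, the kinase of the series title, also phosphorylates AGO2, and ANKRD52 with PPP6C forms the phosphatase that reverses it. CSNK1A1 had 144, 139 and 136 CPM in shITGB5 and 146, 141 and 151 CPM in shcontrol libraries (log2 change -0.06, 95% interval -0.14 to 0.01, edgeR adjusted p = 0.254). A gene on the same strand, AC021078.1, overlaps CSNK1A1 with counts equal to 15.9% of it. PPP6C had a log2 change of -0.07 (interval -0.17 to 0.04, edgeR adjusted p = 0.455) and ANKRD52 one of 0.0044 (interval -0.05 to 0.06, edgeR adjusted p = 0.95). P4HB, the shared subunit of the prolyl hydroxylase that acts on AGO2, rose by 0.08 on the log2 scale (edgeR adjusted p = 0.00447), a call lost without shcontrol replicate 2 (0.0626). Without shITGB5 replicate 3 the list had 2 calls.

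Of 5 importins and nuclear factors, 2 fell (40.0%, beside 6.74% of all tested genes that fell). These were XPO1, the main export receptor for proteins and some RNAs (371 CPM ± 14.3 in shITGB5 and 412 CPM ± 4.27 in shcontrol libraries, log2 change -0.15, edgeR adjusted p = 1.66e-05), and the import receptor TNPO1 (-0.13, edgeR adjusted p = 0.000336). XPO5, of the same karyopherin family, was not called, and the difference between the changes of XPO1 and XPO5 was not tested. The PIWI clade, Argonaute relatives of the germ line, was barely present. PIWIL1 had 0 counts in all libraries, which allows up to 0.190 CPM for counting error only, and PIWIL3 at most 3 counts. PIWIL2 averaged 4.63 CPM ± 0.979 in shITGB5 and 5.00 CPM ± 0.881 in shcontrol libraries and PIWIL4 2.47 CPM ± 0.94 and 2.15 CPM ± 0.473 (SD, n = 3 each), and neither was called (edgeR adjusted p = 0.765 and 0.693). PIWIL4 overlaps FUT4 on the same strand, which carries more counts than PIWIL4.

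**Figure D5:**
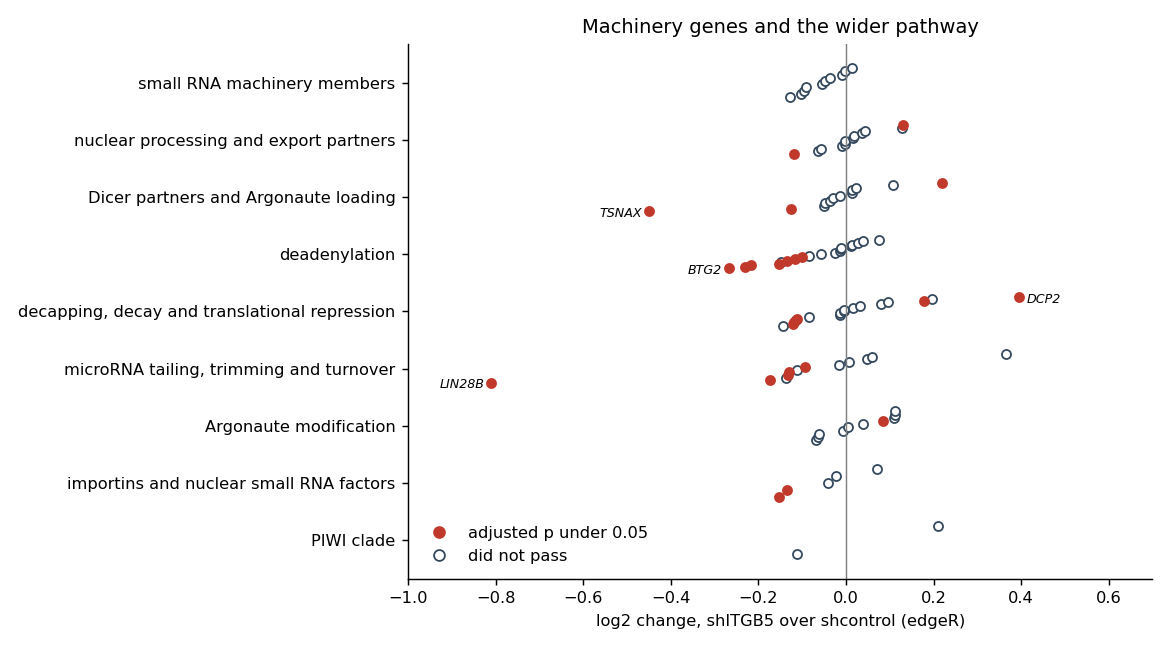
Log2 change of each tested gene, shITGB5 over shcontrol, by list, with genes past an edgeR adjusted p of 0.05 filled in red. The 10 machinery genes in the top row are all open symbols between -0.13 and 0.01, whereas LIN28B, TSNAX and DCP2 lie farthest from 0 among filled symbols.

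Primary microRNA transcripts were seen through their host genes. Of 62 genes with a host gene symbol (MIR followed by HG), 23 were tested. EdgeR called 0 of the 23, beside 15.1% of all tested genes. In edgeR 4 of the 23 had an unadjusted p under 0.05, beside 25.4% of all tested genes. Many of the 23 had few counts, which limits what could be called. DESeq2 called 0, but it gave an adjusted p to only a minority of the 23. Limma called 1, MIR34AHG (named after its value was seen), the transcript that contains miR-34a. MIR34AHG had 11.1, 10.5 and 9.87 CPM in shITGB5 libraries and 8.98, 8.04 and 7.83 CPM in shcontrol libraries (log2 change 0.34, edgeR adjusted p = 0.0511, limma adjusted p = 0.0486). The groups did not overlap, as for 28.5% of all tested genes. MIR122HG, the host of the liver microRNA miR-122 and likewise named after its value was seen, had 13 to 24 counts in shITGB5 and 17 to 24 in shcontrol libraries, with a log2 change of -0.23 (95% interval -0.93 to 0.48, edgeR adjusted p = 0.757). Rows of microRNA genes themselves held 845 to 927 counts a library with the ITGB5 hairpin and 846 to 989 with the control, of which 23 genes were tested. EdgeR and limma called 0 of these 23, and DESeq2 0 of those to which it gave an adjusted p. In edgeR 1 of these 23 had an unadjusted p under 0.05, beside the 25.4% of all tested genes.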

How the data were processed

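The authors deposited 1 table named for FPKM, but 100% of its values are whole (tolerance 0) with unequal column totals, so it was analysed as raw counts. Per the labels' protocols, total RNA went into a directional library kit. No aligner, counter or strand setting is given in the sources used. Columns marked S and NC were read as the ITGB5 and control hairpin, which the labels do not spell out. Positions and strands of all 58735 genes equalled GENCODE 29 (GRCh38). Genes were kept by filterByExpr, scaled by TMM and tested with edgeR 4.0.16 (R 4.3.3) quasi-likelihood, no covariate, two-sided, Benjamini-Hochberg adjusted over 16577 genes, threshold 0.05. An interval is the log2 change with its SE and t quantile. FPKM was computed from the table's gene lengths. With 3 libraries against 3, an exact permutation test cannot go below 0.1 and was not used. Alternatives were RLE factors, library totals, other filters, DESeq2 1.42.0, limma 3.58.1 on log2 CPM, a replicate block and leaving out each library.

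Members and lists were chosen with earlier results of these data known. Named genes were all members, ITGB5, 6 fixed genes (CSNK1A1, PPP6C, ANKRD52, LIN28B, DGCR8, TARBP2) and, per list, up to 3 called genes with the largest change, or 2 of the most abundant. Intervals and floors cover counting error or library spread only.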

Additional observations from a re-analysis of the deposited data

How the results depend on the processing

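The count of called members was 0 under each of the 13 alternatives run, with an adjusted p of at least 0.148. The whole table's 2495 calls ranged from 1914 (DESeq2) to 2551 (limma), and those of the wider pathway, 25, from 17 (without shcontrol replicate 2) to 25. Same-numbered libraries did not deviate together (correlations 0.028, -0.000125 and -0.0174), so the numbers were not taken as pairs. With the replicate block 2303 genes, 23 pathway genes and 0 members were called, and the decapping list had 3 calls. DESeq2 and the fit with no low-count filter gave 19 pathway genes each, with 3 decapping genes each and, for tailing and turnover, 3 and 2. Other scalings moved the median of all genes by at most 0.0033 (log2). Estimates near 0 changed sign: AGO1 became 0.0052 with no low-count filter, and with 1 library left out AGO1 ranged from -0.0784 to 0.0545, AGO2 from -0.0141 to 0.0329, AGO3 from -0.0766 to 0.0215, DROSHA from -0.0304 to 0.0229, ANKRD52 from -0.0201 to 0.0182 and PIWIL2 from -0.241 to 0.0482. DICER1 kept its direction in all 13, from -0.178 to -0.0993. With 1 library left out, XPO5 ranged from -0.088 to -0.01, TNRC6C from -0.1388 to -0.0189, PPP6C from -0.1118 to -0.0087 and TARBP2 from -0.079 to -0.0106, all uncalled and without a change of sign. With 3 libraries per group the members' 95% intervals were as wide as -20.7% to 11.2% (TNRC6C).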
